A study of Arabidopsis thaliana with 15 samples.

Results

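Of the 15 Affymetrix ATH1 arrays in this series, 8 follow Arabidopsis pollen from the dry grain into the first 0.5 h on growth medium, and they were chosen by their sample titles alone. The 4 dry pollen arrays hold mature, desiccated wild-type pollen of the Columbia accession (Col-0), drawn by vacuum from stage 14 to 15 flowers and frozen at once. The 4 arrays of 0.5 h PT hold wild-type Col-0 pollen drawn in the same way into 250 µl of liquid pollen growth medium, kept for 0.5 h at 24°C, spun down, freed of the medium and frozen. The 0.5 h material was a mixture of hydrated grains and grains just starting to put out a tube. The other arrays hold tubes after 4 h on medium (4 h PT, 4 arrays) and tubes that had grown through a cut pistil and out of it (SIV PT, 3 arrays), and they serve here to estimate the spread and to show where a transcript went later. All pollen was wild type, while the pistils that the SIV PT tubes grew through came from the male sterile mutant ms1 of the Landsberg ecotype, and 5 µg of total RNA was labelled for each of the 8 arrays. Time, wetting, spinning and removal of the medium set the 0.5 h PT samples apart from the dry grains, so their shares in a difference cannot be told apart. Each value is a signal, a brightness per probe set that was scaled by the authors to a trimmed mean of 500.1 on every array, and changes are differences of log2(signal + 64).

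A pollen grain leaves the anther dry and nearly at rest, loaded with stored messenger RNA and protein. On the stigma or on medium it takes up water, its membranes reseal, calcium and ROP GTPase signals set up a growth pole, and a tube breaks through an aperture of the wall. Much of this early step is known to run on stored material, and new transcripts are added as the tube grows.

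The relative transcript levels of dry pollen and 0.5 h PT were nearly the same. Equal amounts of RNA were labelled and signals were scaled to the same trimmed mean. A change in the total mRNA of a grain could therefore not be seen. Pearson's r on log2(signal + 64) ran from 0.937 to 0.962 between arrays of the 2 conditions, against 0.944 to 0.967 among dry pollen arrays and 0.945 to 0.957 among 0.5 h PT arrays, as a description over 22746 probe sets that are not independent. Counting a probe set as expressed from a mean log2 signal of 8, 4941 probe sets were expressed in dry pollen and 4971 in 0.5 h PT, and 4717 were expressed in both. The 224 that passed only in dry pollen had a median signal of 295.2 there and 227.1 at 0.5 h, and the 254 that passed only at 0.5 h had medians of 234.8 and 293.8. Of the 5195 probe sets expressed in either condition, 5048 changed by less than 1.5-fold (97.2%) and 53 by 2-fold or more. The 5 pairs of Arabidopsis control probe sets for the 3′ and 5′ ends of one transcript gave overlapping 3′ to 5′ ratios in the 2 conditions (exact permutation p, two-sided, 0.229 to 0.686, adjusted p 0.643 to 0.686, where 0.0286 is the smallest that 4 against 4 arrays allow).

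Pollen's own defining transcripts were high in every array and passed no test. The summed signal of 9 vegetative cell markers ran from 219089 to 234254 in dry pollen and from 220618 to 245325 in 0.5 h PT, and none of the 9 passed the test in either direction. Among them the actin-depolymerizing factor ADF7 was at 30417 ± 1958 in dry pollen and 32519 ± 1712 in 0.5 h PT (mean signal ± SD, n = 4 arrays each, log2 change 0.10, 95% interval −0.18 to 0.38). The sperm cell histone transcript MGH3 (AT1G19890) was at 8840 ± 359 and 9087 ± 1158, with a change of 0.03 (interval −0.29 to 0.35). It was the 1 gene of 13 on the sperm cell list that had a named probe set. In a bulk sample, fewer cells of a type and less RNA per cell cannot be told apart.

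The 100 probe sets with the strongest signals in dry pollen, at 62441 to 146404, all changed by less than 1.5-fold, and 97 of them were also among the 100 strongest at 0.5 h. Of the 500 strongest, 499 changed by less than 1.5-fold and 0 passed the test. The 5 strongest probe sets with 1 named gene were AT3G28750, AT3G07820, AT1G10770, AT1G29140 and AT3G01270. AT3G28750 was at 135167, 130927, 170801 and 148721 in the dry pollen arrays and at 170718, 192578, 145774 and 150395 in the 0.5 h PT arrays, overlapping ranges. AT3G07820, annotated as a pectin-degrading polygalacturonase, went from 123915 ± 8444 to 140655 ± 15863. The changes of the 5 were 0.05 to 0.25, and every 95% interval lay between −0.24 and 0.59. The single exception among the 500, singled out after its values were seen, was the ARF-like GTPase transcript ARLA1C (AT3G49870). It was at 23978, 29025, 33283 and 15871 in dry pollen and at 4060, 5807, 19946 and 12138 in 0.5 h PT, so that the groups overlapped (log2 change −1.49, adjusted p = 0.643 by limma).

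Against this background a short list of transcripts changed. At the limits the study used for changed genes, B above 3 (the log odds of a change) and at least 3-fold, 6 probe sets were higher in 0.5 h PT (0.0264% of those tested) and 8 were lower (0.0352%). The study applied these limits to RMA values normalized together with public arrays. Its counts thus rest on another measure than the signals with an offset used here. At a Benjamini-Hochberg adjusted p below 0.05 by limma, 18 were higher (0.0791%) and 16 were lower (0.0703%). None of these 34 overlapped between the groups, while 924 of all 22746 probe sets (4.06%) did not overlap. A further 29 expressed probe sets differed by 2-fold or more and did not pass, 18 of them higher and 11 lower in 0.5 h PT. One gene is named for 16 of the risen and 11 of the fallen probe sets. The total of 34 fell to 18 without dry pollen replicate 2, to 19 without 0.5 h PT replicate 1 and to 19 without 0.5 h PT replicate 4. It fell to 18 (11 higher, 7 lower) when only the 8 arrays entered the fit.

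**Figure D1:**
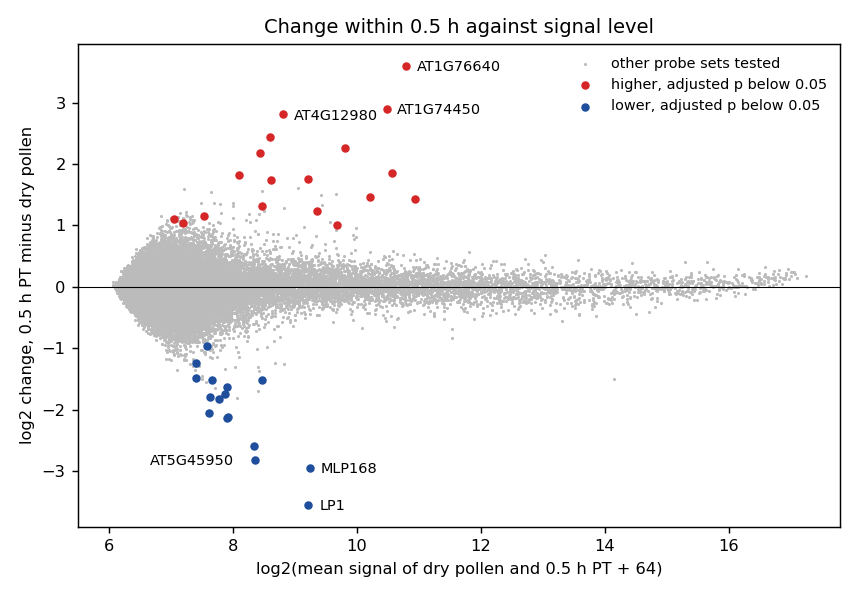
Change from dry pollen to 0.5 h PT (vertical axis, log2, differences of log2(signal + 64)) against signal level (horizontal axis, log2 of the mean signal of both conditions plus 64) for all 22746 probe sets, with the 18 that rose in red and the 16 that fell in blue. The strongest signals lie close to 0, and the changed probe sets sit at low and middle levels.

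The largest rise was that of AT1G76640, a calmodulin-like protein of the EF-hand family, which bind calcium and pass its signal on. Its signal was 137.8, 268.5, 204.2 and 223.4 in the dry pollen arrays and 2926, 2999, 3674 and 3164 in the 0.5 h PT arrays. Every 0.5 h PT array thus stood far above every dry pollen array, and the log2 change was 3.60 ± 0.24 (SE, 12.1-fold, adjusted p = 3.48e-06 by limma). Of 20 measured calmodulin and calmodulin-like transcripts it was the only 1 to pass in this fit, 0 fell, and the median change of the 20 was −0.06 beside 0.005 for all probe sets. Its neighbour in the numbering, the calmodulin-like CML38 (AT1G76650), was at 90.2 ± 44.2 and 70.6 ± 55.7. The abundant calmodulin transcript CAM3 (AT3G56800) was at 42765 ± 3576 and 40763 ± 2384. The EF-hand transcript listed as AGD11 (AT3G07490) went from 281.0 to 499.4 in dry pollen to 604.0 to 1565 at 0.5 h, a change of 1.52 that did not pass with all 15 arrays (adjusted p = 0.115 by limma).

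AT1G74450, whose protein has a domain of unknown function, rose from 264.1 ± 39.2 to 2455 ± 734 (log2 change 2.90 ± 0.25 SE, adjusted p = 7.59e-05 by limma). Its single arrays read 262.3, 225.4, 318.2 and 250.7 in dry pollen and 1968, 1742, 2781 and 3329 at 0.5 h. The separation of the groups was wide. This transcript, AT1G76640 and the zinc finger transcript PMZ were the 3 whose calls held in all 17 refits. The refits used other scalings, filters, arrays or variance estimates. In 1 of them a filter on level let 15 of the 18 risen and 0 of the 16 fallen probe sets enter. No fallen probe set could therefore hold in all 17. PMZ (AT3G28210), of the A20/AN1 family of stress-associated zinc finger proteins, was at 729.4, 705.3, 623.1 and 369.8 in dry pollen and at 2075, 2163, 2732 and 2218 in 0.5 h PT. That is a change of 1.85 ± 0.21 (SE, 3.60-fold, adjusted p = 0.000935 by limma), with the smallest standard error of the 6 rises past the stricter limits. It was 1 of 8 measured transcripts of its family to rise, 0 fell, and the other 7 changed by −0.16 to 0.17.

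The U-box ubiquitin ligase PUB22 (AT3G52450), which attaches ubiquitin to other proteins and is known as a brake on immune signalling, also rose. It was at 15.6, 17.3, 114.7 and 103.4 in dry pollen and at 357.7, 369.1, 338.1 and 354.9 in 0.5 h PT, with a change of 1.83 ± 0.29 (SE, adjusted p = 0.0195 by limma). The 0.5 h PT arrays lay close together and above all dry pollen arrays, of which 1 and 2 were lower than 3 and 4. The call held in 8 of the 17 refits. PUB22 belongs to a list of 43 genes that respond fast to touch, wounding and elicitors in other tissues. Of these, 14 were measured, of which 1 rose, 0 fell and the median change was −0.06. PUB23 (AT2G35930), a close relative of PUB22, read 115.2, 51.5, 156.6 and 23.1 in dry pollen and 280.7, 184.8, 314.6 and 403.8 at 0.5 h. Its groups did not overlap, but its change of 1.31 did not pass (adjusted p = 0.316 by limma). The touch and wound transcripts WRKY33 (11.5 ± 6.9 and 15.4 ± 9.0) and STZ (49.9 ± 51.7 and 41.2 ± 36.0) stayed at low signals.

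AT5G04760, a MYB family factor, was at 43.7, 34.1, 27.9 and 113.1 in dry pollen and at 490.3, 310.4, 677.0 and 885.6 in 0.5 h PT (change 2.43 ± 0.33 SE, adjusted p = 0.00427 by limma). A second MYB family factor, AT5G61620, rose from 478.4 ± 43.2 to 1028 ± 77.1, a change of 1.01. The histone H2A transcript HTA13 rose from 134.7 ± 25 to 440.2 ± 133.2, a change of 1.31. The calls of AT5G61620 and HTA13 held in 9 and 7 of the 17 refits, and that of AT5G04760 in 16.

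AT1G67640, of the lysine and histidine transporter family, was the risen transcript with the highest start, at 1372, 887.5, 925.9 and 815.4 in dry pollen and 2478, 2420, 2877 and 3295 at 0.5 h (change 1.43 ± 0.26 SE, adjusted p = 0.045 by limma). ABCB9 (AT4G18050), an ABC transporter of the P-glycoprotein type, rose from 209.9 ± 71.4 to 844.5 ± 185.3, a change of 1.75 (adjusted p = 0.0221 by limma). The 2 calls held in 5 and 8 of the 17 refits. No rise passed among the measured genes of sugar or water uptake. Of 17 listed sugar transport and invertase genes 11 had a named probe set, and 0 of the 11 passed in either direction. Of 24 listed aquaporins only 2 had a named probe set, of which 0 rose and 1 fell. In the sugar list AtVEX1 went from 1829 to 1274 in mean signal with 1 array of 0.5 h PT, at 1548, above the lowest dry pollen array, at 1513 (change −0.50, adjusted p = 0.687 by limma).

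The remaining named rises were diverse. AT4G12980, annotated as auxin-responsive, went from 150.0, 48.9, 16.4 and 11.7 to 818.7, 638.5, 733.8 and 656.8 (change 2.81 ± 0.37 SE, adjusted p = 0.00352 by limma). Its dry pollen arrays were scattered over a wide range and its 0.5 h PT arrays were close together. AT4G30490, an ATPase like AFG1, rose from 253.3 ± 104.7 to 1406 ± 243 (change 2.26 ± 0.30 SE), and the carboxylesterase transcript CXE18, related to the gibberellin receptor family, from 63.5 ± 43.5 to 499.1 ± 119.1 (change 2.18 ± 0.35 SE). AT3G19690, a putative pathogenesis-related protein, rose from 120.5 ± 62.1 to 534.1 ± 140.3 (change 1.74 ± 0.30 SE). AT5G37230 and AT3G45210 rose by 1.47 and 1.16. AT2G07673 rose from 31.5 ± 12.3 to 133.2 ± 23.8, at signals where probe sets are hard to tell from background. The probe set of AT5G37230 is one that can bind related transcripts, and that of AT2G07673 one that several transcripts share. The 2 risen probe sets without a gene name rose by 1.23 and 1.1. Of the transcripts in this paragraph, AT4G12980, AT4G30490 and AT5G37230 kept their calls in 16 of the 17 refits, AT3G45210 in 13, CXE18 in 11, AT3G19690 in 7 and AT2G07673 in 4.

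**Figure D2:**
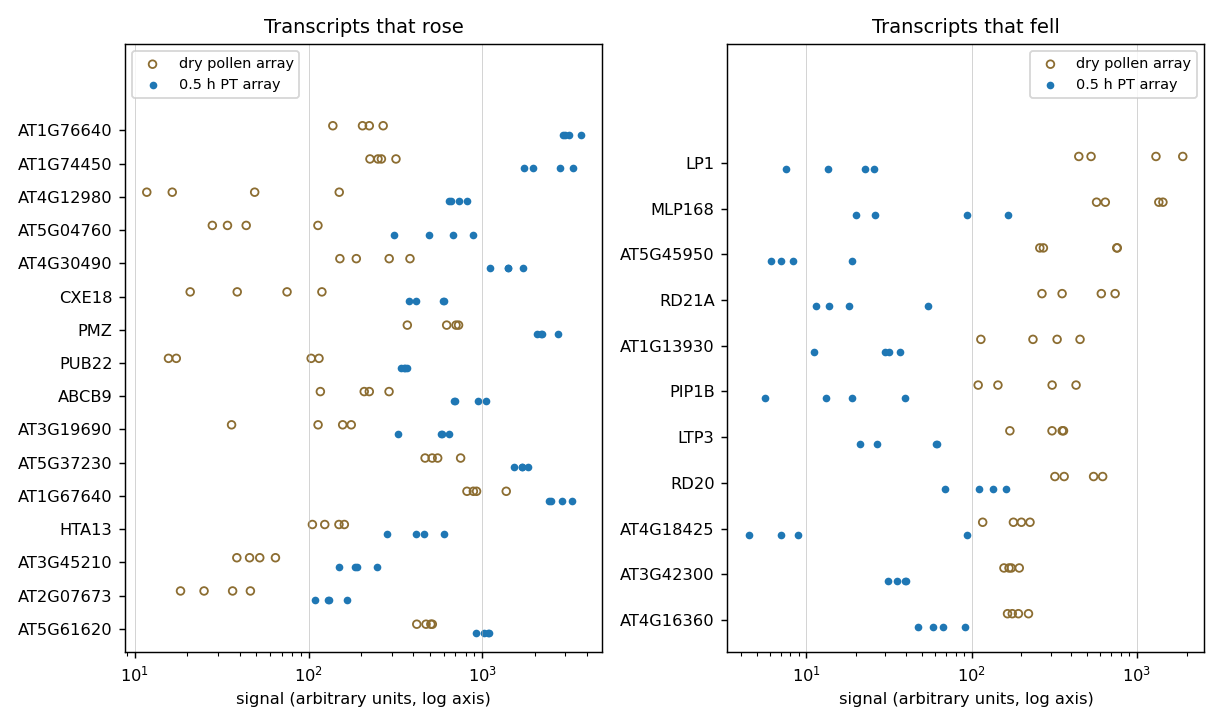
Signal in each of the 4 dry pollen arrays (open circles) and the 4 arrays of 0.5 h PT (filled circles) for the 16 named transcripts that rose (left) and the 11 that fell (right), on a logarithmic signal axis, ordered by size of change. No transcript has overlapping groups, and the fallen ones end at 165.1 or lower in every 0.5 h PT array.

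The largest fall was that of LP1 (AT2G38540), a lipid transfer protein of the cell wall that is abundant in the epidermis of shoots and flowers. It was at 444.8, 1303, 1892 and 527.6 in the dry pollen arrays and at 25.8, 22.6, 13.5 and 7.5 in the 0.5 h PT arrays. The lowest dry pollen array stood far above the highest 0.5 h PT array, with a log2 change of −3.55 ± 0.33 (SE, 11.7-fold, adjusted p = 0.000138 by limma). The size of such a fall depends on the offset, since the 0.5 h PT signals of LP1 lie below the median signal of their arrays (74.7 to 95.2), and with an offset of 16 the change of LP1 was −4.78 (27.4-fold). With that offset each of the 16 fallen probe sets fell further, by 0.31 to 1.37 more on the log2 scale. A second lipid transfer protein, LTP3 (AT5G59320), fell from 297.3 ± 87.9 to 42.7 ± 21.7 (change −1.74 ± 0.23 SE, adjusted p = 0.00327 by limma). MLP168 (AT1G35310), of the Bet v I allergen and latex protein family, was at 569.7, 1356, 1436 and 643.3 and then at 165.1, 26.2, 19.9 and 93.2 (change −2.94 ± 0.37 SE, adjusted p = 0.00247 by limma). The calls of LP1, LTP3 and MLP168 held in 16, 14 and 14 of the 17 refits. That of LP1 was lost only under the filter on level, which it did not enter.

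LP1, LTP3 and MLP168 belong to a marker list of 19 genes for epidermis and floral surface, of which 7 were measured. Of the 7, 0 rose, 3 fell and 4 did not pass, with a median change of −0.28 beside 0.005 for all probe sets, and the list was put together with results of these arrays known. Its summed signal was 1512, 3102, 3763 and 1529 in dry pollen and 257.6, 362.9, 202.4 and 208.4 in 0.5 h PT, so the groups did not overlap. Most of the sum in dry pollen came from LP1 (mean 1042), MLP168 (1001) and LTP3 (297.3). The sum thus restates the falls of these 3 and adds nothing to them. Of the other members, MLP329 was at 90.2 ± 34.5 in dry pollen and 68.6 ± 56.6 at 0.5 h, LTP2 at 11.1 ± 2.3 and 23.2 ± 28.1, MLP328 at 10.3 ± 4.5 and 5.5 ± 1.6, and the wax and cutin enzyme KCS10 at 24.9 ± 10 and 24.4 ± 9.3. In green tissue markers 4 of 25 listed genes were measured, at low levels throughout, and 0 of the 4 passed. Their summed signal was 333.2 to 481.6 in dry pollen and 125.8 to 247.7 in 0.5 h PT. The tapetum and pollen coat list summed to 165.2 to 442.4 and 136.2 to 346.9, and 0 of 6 measured of 19 listed passed. The part of RNA from flower surface cells in the falls was not tested. With only the 8 arrays in the fit, or without dry pollen replicates 2 and 3, 1 of the 7 fell.

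RD21A (AT1G47128), a cysteine protease first described as induced by drought, was at 266.3, 737.6, 608.6 and 352.5 in dry pollen and at 18, 11.4, 54.1 and 13.8 in 0.5 h PT (change −2.59 ± 0.30 SE, adjusted p = 0.000993 by limma). It was 1 of 5 measured vacuolar cysteine proteases to fall, 0 rose, and the processing enzyme GAMMA-VPE (AT4G32940) stayed at 2872 ± 569 and 2530 ± 337. The call of RD21A was lost in 1 of the 17 refits, the filter on level. PIP1B (AT2G45960), a water channel of the plasma membrane, was at 109.5, 306.8, 428.1 and 144.2 and then at 18.8, 5.6, 39.5 and 13.1 (change −1.79 ± 0.31 SE, adjusted p = 0.0275 by limma), a call that held in 6 of the 17 refits. The second aquaporin measured, PIP2E, was at 16.0 ± 10.5 and 50.6 ± 49.0.

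Of 14 measured of 28 listed late embryogenesis abundant and desiccation transcripts, 0 rose, 2 fell and 12 did not pass, beside 0.0703% of all probe sets called lower. The median change was −0.45 beside 0.005 for all probe sets. Of the 14, 3 were expressed in dry pollen and 2 at 0.5 h, so the median rests mostly on low signals. RD20 (AT2G33380), a calcium-binding caleosin of lipid droplets that is induced by dehydration and abscisic acid, fell from 318.8, 546.5, 620.1 and 362.7 to 160.9, 68.8, 111.4 and 135.3 (change −1.51 ± 0.27 SE, adjusted p = 0.0425 by limma). AT1G13930, related to a drought-induced protein, fell from 282.5 ± 143.5 to 27.4 ± 11.2 (change −1.83 ± 0.29 SE, adjusted p = 0.0181 by limma). The dehydrin COR47 went from 582.6 ± 284.9 to 190.3 ± 19.6, a change of −1.25 with groups that did not overlap, and did not pass (adjusted p = 0.272 by limma). The changes of the 12 that did not pass ran from that of COR47 to 0.57 for LTI30. They include AtLEA4-1 at 108.7 ± 80.5 and 12.4 ± 6.6 (change −1.03) and ERD14 at 95.8 ± 69.2 and 16.1 ± 6.7 (change −0.90). The lipocalin TIL was at 328.6 ± 84.1 and 413.9 ± 178.4 and LEA4-5 at 261.0 ± 65.5 and 279.4 ± 58.6. The list was made with results of these arrays known. Its 2 calls became 0 or 1 whenever any 1 of the 8 arrays was left out, and RD20 and AT1G13930 kept theirs in 4 and 9 of the 17 refits.

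The other named falls were AT5G45950, a GDSL-motif lipase, which dropped from 511.2 ± 284.4 to 10.1 ± 6.0 (change −2.81 ± 0.32 SE, adjusted p = 0.000935 by limma), AT4G18425 at −1.48 and AT3G42300 at −1.24. AT4G16360, a beta subunit of the SNF1-related kinase complex that senses energy status, fell from 188.3 ± 24.2 to 65.9 ± 18.9. That change of −0.96 was under 2-fold, outside the rule for naming, and the gene was singled out after its values were seen. The calls of AT5G45950, AT4G18425, AT3G42300 and AT4G16360 held in 16, 8, 5 and 5 of the 17 refits. The 5 fallen probe sets without a single gene name fell by 1.52 to 2.14 on the log2 scale, and 3 of them were past the stricter limits.

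The fallen transcripts shared a level and a pattern across the dry pollen arrays. Their mean signals were 173.3 to 1042 in dry pollen and 9.9 to 119.1 in 0.5 h PT, and 15 of the 16 were under 100 at 0.5 h. As a median over the 16, the 0.5 h mean was 8.7% of the dry pollen mean, from signals without the offset. The median 0.5 h mean, 28, lies below the median signal of the 0.5 h PT arrays (74.7 to 95.2). Such percents are thus set by signals that are hard to tell from background. In 13 of the 16 (81.2%) both dry pollen replicates 2 and 3 were above both replicates 1 and 4, as against 3560 of all 22746 probe sets and 2 of the 18 risen ones. For LP1 the mean of replicates 2 and 3 was 3.29 times that of 1 and 4, for PIP1B 2.90 times and for AT5G45950 2.86 times, while AT3G42300 (0.88), AT4G18425 (0.90) and LTP3 (1.24) did not follow. What sets those arrays apart was not tested. Without dry pollen replicates 2 and 3, chosen for leaving out after this was seen, 8 probe sets passed at adjusted p below 0.05, 3 higher and 5 lower. The 5 that remained lower were LP1, AT5G45950, RD21A and 2 probe sets without a gene name.

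**Figure D3:**
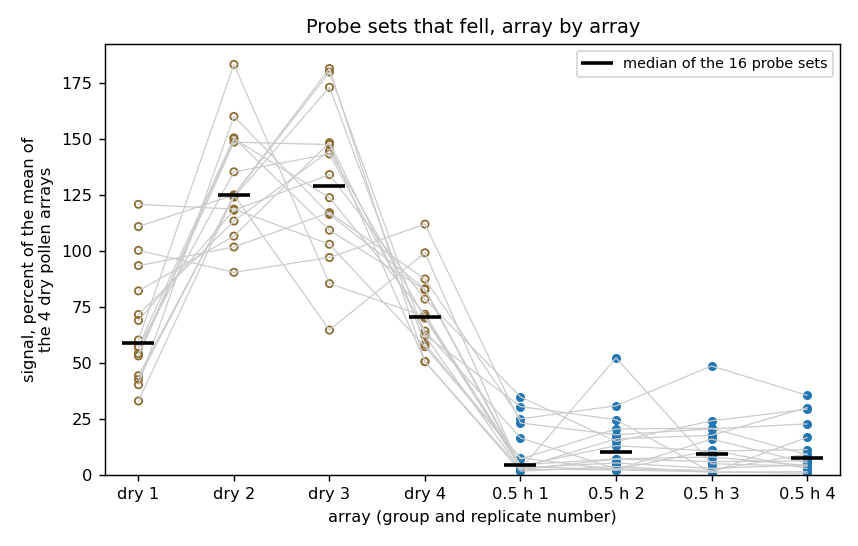
Signal of the 16 fallen probe sets in each of the 8 arrays, as a percent of each probe set's mean over the 4 dry pollen arrays, with a bar at the median (58.8, 125.0, 129.1 and 70.4% in dry pollen 1 to 4 and 4.2, 10.1, 9.3 and 7.6% in 0.5 h PT 1 to 4). Grey lines join the values of 1 probe set, and replicates 2 and 3 of dry pollen stand above 1 and 4 in most of them. Percents use signals without the offset.

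The measured members of lists of pollen tube functions gave no calls over this step. Of all 22746 probe sets 34 (0.149%) were called, so lists this short can hold 0 calls without differing from the rest. Of 27 listed genes of the ROP GTPase switch and tip receptors 11 were measured, of which 0 rose and 0 fell. Among them the receptor kinase transcript ANX2 was at 32501 ± 1421 and 33228 ± 2317, and the ROP activator ROPGEF13 read 195.1, 39.6, 196.5 and 204.2 in dry pollen and 378.5, 315.3, 591.9 and 449.2 at 0.5 h, a change of 1.23 that did not pass (adjusted p = 0.186 by limma). Of 16 listed cell wall genes of the growing tube 9 were measured, and 0 of the 9 passed. All 9 were expressed in both conditions, and the largest change was 0.29 (interval −0.07 to 0.64) for AT5G07430, annotated as a pectin methylesterase. Of 33 cytosolic ribosomal protein transcripts 0 passed and the median change was −0.12. Only 4 of the 33 were expressed in dry pollen and 4 at 0.5 h, so most were at low signals. The largest change was that of the L30 protein transcript AT3G18740, listed under the symbol RLK902, from 183.3 ± 69.0 to 37.0 ± 27.0 (change −1.29, adjusted p = 0.272 by limma).

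Stress and secretion lists gave none either among their measured members, again beside 0.149% called over all probe sets. Of 21 heat shock transcripts 0 passed, with a median change of 0.34. Of the 21, 5 were expressed in dry pollen and 7 at 0.5 h. The heat-responsive coactivator MBF1C had the largest change, from 206.5, 60.9, 16.7 and 9.6 to 248.5, 213.5, 245.9 and 252.8 (change 1.35, interval 0.41 to 2.29, adjusted p = 0.577 by limma). The summed heat shock signal was 6397, 3829, 3429 and 3659 in dry pollen and 5438, 4888, 5941 and 7608 in 0.5 h PT, so dry pollen replicate 1 lay among the 0.5 h PT arrays. Of 18 listed endoplasmic reticulum chaperone and unfolded protein response genes 11 were measured and 0 passed. Of the 11, 7 were expressed in dry pollen and 4 at 0.5 h. The changes of the 11 ran from −0.34 for the chaperone SHD (interval −0.84 to 0.15) to 0.19. For alternative respiration 7 of 18 listed genes were measured, with changes from −0.48 to 0.22, and 0 passed. Of the 7, 2 were expressed in dry pollen and 2 at 0.5 h. For 2 of 23 listed abscisic acid genes and 1 of 12 of mRNA decay, DCP5, the change ran from −0.45 to −0.15 and 0 passed. None of these was expressed in either condition. The rest of both lists was not measured.

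What the arrays could bound depended on level. The 95% interval of the change lay within 2-fold for 73.7% of all probe sets, for 91.5% of the 3149 with a mean log2(signal + 64) of 8 to 10, for 98.8% of the 1466 from 10 to 12 and for 99.3% of the 1120 at 12 and over. Below that it was 56.3% of 6527 from 7 to 8 and 73.0% of 10484 under 7, where the offset of 64 holds changes down. Of the 16 falls 13 lay in the band from 7 to 8, while 14 of the 18 rises lay at 8 or above. With an offset of 16 the share within 2-fold dropped to 31.2%.

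**Figure D4:**
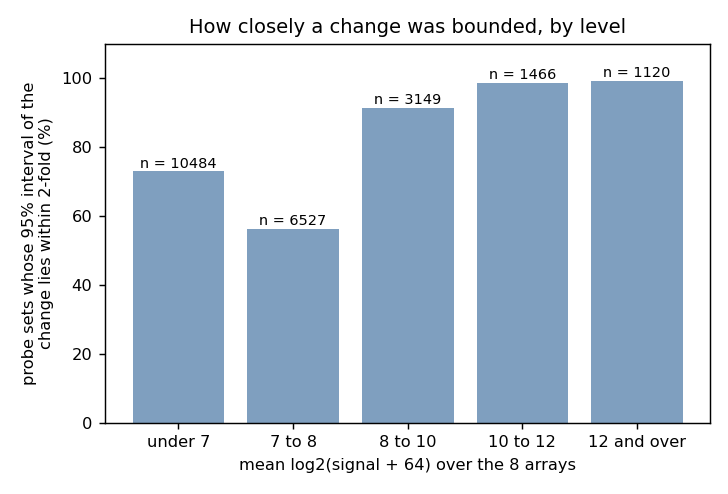
Percent of probe sets whose 95% interval of the change from dry pollen to 0.5 h PT lies within 2-fold (bars, from 0), by mean log2(signal + 64) over the 8 arrays, with the number of probe sets above each bar. The share is lowest, 56.3%, from 7 to 8 and is 98.8% or more from 10 upward.

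The later arrays show where the changed transcripts went. These comparisons share the 0.5 h PT or 4 h PT arrays, so the values are set side by side and not counted. AT1G76640 went on from 3191 ± 338 at 0.5 h to 14892 ± 5144 after 4 h and 7840 ± 1861 in the semi in vivo tubes (n = 4, 4 and 3). AT3G19690 went from 534.1 at 0.5 h to 12784 ± 4521 and 23992 ± 968, and AT1G67640 from 2768 to 13672 ± 6451 and 42755 ± 1782. PMZ reached 5986 ± 1240 and 6951 ± 455, and CXE18 reached 1663 ± 1049 and 8485 ± 867. AT5G04760 and AT5G37230 instead stayed near their 0.5 h level, at 626.0 ± 277.5 and 1404 ± 343 in 4 h PT. AT2G07673 was at 24.2 ± 22.1 in 4 h PT, near its level in dry grains. A risen probe set without a gene name was at 603.7 ± 164.2 after 4 h and at 7.2 ± 4.6 in the semi in vivo tubes.

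The most changed of the fallen transcripts were also low at 4 h. LP1 was at 11.7 ± 6.2 in 4 h PT, AT5G45950 at 34.1 ± 27.7, RD21A at 39.8 ± 41.0 and MLP168 at 32.1 ± 38.2. In tubes that had passed through a pistil some were higher again, LP1 at 230.4 ± 33.1, LTP3 at 316.2 ± 62.4 and RD21A at 154.6 ± 32.2, while AT5G45950 (25.2 ± 28.3) and MLP168 (53.9 ± 26.3) were not. Those tubes differ from the others in growth time, in growth surface, in the ms1 pistil they crossed and in the 2 µg of RNA labelled. They were also cut off where they left the pistil, without their grains. The shares of these differences cannot be told apart. The LTP3 level in SIV PT was thus within the range of the dry pollen arrays or just above it, at 294.3, 386.6 and 267.6.

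**Figure D5:**
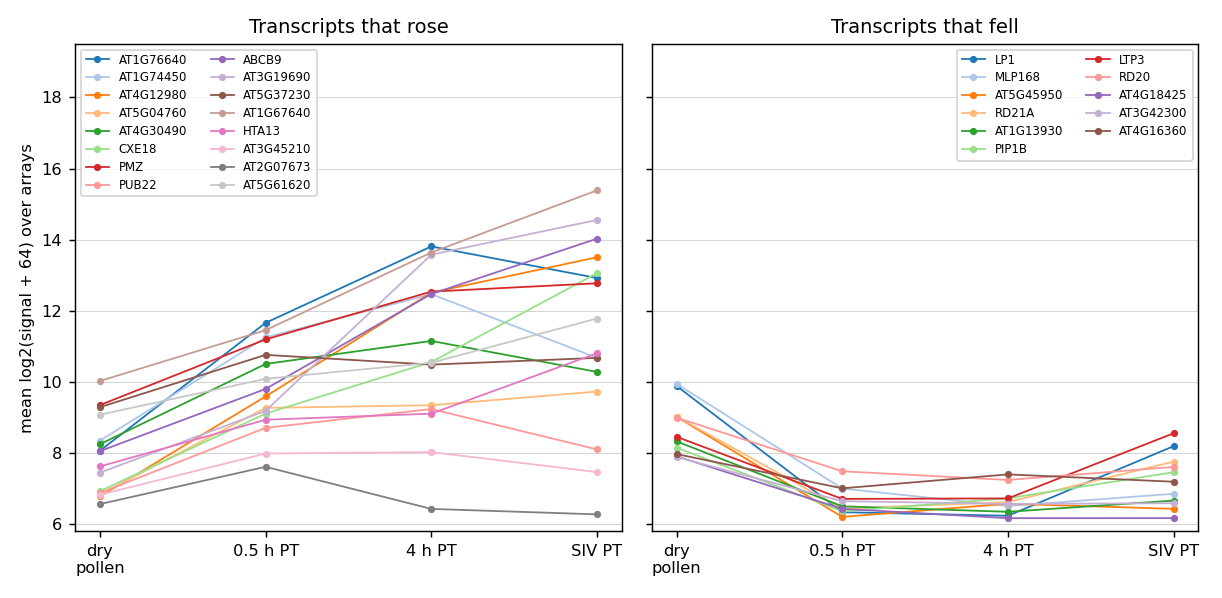
Mean log2(signal + 64) over the arrays of each condition (n = 4 for dry pollen and both in vitro times, n = 3 for SIV PT) for the 16 named transcripts that rose (left) and the 11 that fell (right) within the first 0.5 h, joined by lines for each transcript. AT1G67640 and AT3G19690 end highest among those that rose, AT2G07673 returns to its dry pollen level, and LP1 is low at 4 h and higher again in SIV PT.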

How the data were processed

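Signals were deposited by the authors as linear intensity values per probe set, made with GCOS as named in the submitters' notes, without a version, and scaled so that the 2% trimmed mean is alike on every array. RMA values of the study were not used here. After 64 control probe sets were left out, log2(signal + 64) of 22746 probe sets on all 15 arrays entered 1 linear model with a mean per condition and empirical Bayes variances (limma 3.58.1, R 4.3.3, 11 residual and 3.97 prior degrees of freedom). Replicates were called biological by their titles, with nothing said of separate cultures, so p-values measure the spread between these arrays. The number of arrays limits precision.

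Probe sets were named from the platform annotation where it gives 1 gene (13440) and otherwise from gene identifiers in the study's supplementary tables (1926), with symbols of the TAIR10.1 annotation. Another 580 hold several genes, 73 differ between sources and 6727 have no name in either. No sequences or coordinates were used here. Named genes are those past B above 3 and 3-fold, up to 15 more per direction past adjusted p below 0.05 and 2-fold, up to 4 called members per gene list (1 where none passed) and the 5 with the strongest dry pollen signal. Other list members named in the text, such as CAM3, AGD11, PUB23, COR47 and ANX2, fall outside this rule and were chosen after their values were seen. Genes, lists and rules were chosen with earlier results of these data known. Lists are described by counts and medians without a set test, and marker sums carry no p. A list member counts as measured where it had a probe set with 1 named gene, so a count of 0 covers those members only. Called probe sets without a gene name, 2 higher and 5 lower, could enter no list. The fit was tested on simulated data. Other offsets, scalings, filters, variance models, array sets and limits were tried.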

Additional observations from a re-analysis of the deposited data

Results flagged for a closer look

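Among 106 groups of 4 arrays of the named probe sets, 7 held an array whose gap to the nearest other array took up more of the group's range than Dixon's 95% critical value. Chance gives about 1 in 20 such groups. ROPGEF13 was at 39.6 in dry pollen replicate 2 and at 195.1 to 204.2 in the other 3. AT4G18425, which fell, was at 94.2 in 0.5 h PT replicate 2 and at 4.5 to 8.9 in the others. AT3G19690, which rose, was at 328.1 in 0.5 h PT replicate 1 and at 579.7 to 643.5 in the others. MBF1C was at 213.5 in 0.5 h PT replicate 2 against 245.9 to 252.8, and the photosystem transcript LHCB4.2 at 23.7 in 0.5 h PT replicate 4 against 6.6 to 7.8. AT3G07820 was at 136516 in dry pollen replicate 3 against 118621 to 120714, and ADF7 at 29981 in 0.5 h PT replicate 4 against 32998 to 33582.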

How the results depend on the processing

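Since none of the 34 called probe sets overlapped between the groups, most alternatives could not turn a direction. This holds for arrays left out and for other offsets, filters, variance estimates or limits. Quantile normalization and median centring could have done so, and none of the 34 turned. The 14 probe sets past B above 3 and 3-fold became 5 (3 higher, 2 lower) with an offset 4 times as large, 9 (6 and 3) with only the 8 arrays, 5 without dry pollen replicates 2 and 3 (an alternative chosen after seeing the data), and 10 to 18 when 1 array was left out. The 34 at adjusted p below 0.05 became 20, all higher, when entry was limited to probe sets whose log2(signal + 64) averaged 8 or more over all 15 arrays, a filter that 0 of the 16 fallen and 15 of the 18 risen probe sets passed. They became 18 with only the 8 arrays, 8 without dry pollen replicates 2 and 3, 15 at adjusted p below 0.01 and 18 to 26 with 1 array left out. A variance trend gave 49 (32 higher, 17 lower), of which only 28 were among the 34. Without an adjustment 1375 probe sets had p below 0.05, 677 higher and 698 lower.

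With the replicate number as a block 25 probe sets passed, 14 higher and 11 lower, and 15 at the stricter limits. Same-numbered arrays deviated together by r of −0.02 to 0.06 over 5735 probe sets, so the numbers were not taken to pair the arrays, and for 2 of the 4 numbers the best partner had the same number.

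Calls per list were small counts and moved. The calcium sensor list held 2 with the filter, the trend, the block or without 0.5 h PT replicate 2. The touch and wound list held 2 with the trend and 0 with an offset of 16, with only the 8 arrays or without dry pollen replicates 2 and 3, and 0 to 1 with 1 array left out. The desiccation list held 1 with an offset of 16 or the block, 0 with the filter, the 8 arrays or without dry pollen replicates 2 and 3, and 0 to 1 with 1 array left out. Aquaporins held 0 with the larger offset, the 8 arrays, the block and without dry pollen replicates 2 and 3, and 0 to 1 with 1 array left out. The epidermis list held 1 with the 8 arrays or without dry pollen replicates 2 and 3, cysteine proteases 0 with the filter, and the ROP list 1 with the trend.

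The share of intervals within 2-fold was 31.17% with an offset of 16. Expressed probe sets in dry pollen were 7523 with the limit lowered to 7. As means of log2(signal + 64) the epidermis list differed by −1.207 in place of −3.185 for the log2 of its summed signal, and the green tissue list by −0.512 in place of −1.013. Changes near 0 turned sign in 6 uncalled transcripts. After quantile normalization these were AT3G07820 (−0.004), AT3G28750 (0), AT3G01270 (−0.0212) and AT1G29140 (−0.1204). With 1 array left out, DCP5 ran from −0.3405 to 0.0705 (0.0448 without dry pollen replicate 3), and MGH3 from −0.0305 to 0.0935 (−0.0101 without 0.5 h PT replicate 4).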
